A study of Ovis aries with 16 samples.

Results

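NFKBIA, CEBPB, FOS and MYC are inducible regulators, genes whose transcripts are made quickly when a cell is stimulated and whose proteins then control other genes. They were followed across 16 arrays of the hippocampus of late gestation fetal sheep. Every probe that the array files named for 1 of the 4 genes was taken, which gave 4 of the 766 genes that could be named on the array and 8 of its 15008 probes, namely 1 for NFKBIA, 1 for CEBPB, 4 for FOS and 2 for MYC, which the array calls C-MYC. All 8 passed the filter on dim probes and were tested. No spot of theirs was saturated or marked as an outlier.

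The fetuses carried vascular catheters, and the ewe either breathed gas low in oxygen for 30 min or stayed in normoxia. The normoxia group without ketamine (NC, n = 3) and the hypoxia group without ketamine (HC, n = 5) were set beside a normoxia group (NK, n = 4) and a hypoxia group (HK, n = 4) that received ketamine at 3 mg/kg intravenously before the stimulus. Ketamine is an anesthetic that blocks the NMDA type of glutamate receptor. Every fetus then had 23.5 h of normoxia, so that the tissue was collected 24 h after the onset and no earlier time was measured. The labels name no strain, sex or exact age, and the tissue was the whole hippocampus, so fewer cells of a type and less RNA per cell cannot be told apart.

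NFKBIA encodes I-kappa-B-alpha, which holds NF-kappa-B in the cytoplasm. When receptors such as the Toll-like receptors are engaged, the inhibitor is degraded, NF-kappa-B enters the nucleus, and NFKBIA is itself among the genes it turns on, which closes a negative feedback loop. CEBPB encodes C/EBP-beta, a leucine zipper factor of the acute phase and interleukin 6 response, prominent in macrophages and glia. FOS encodes c-Fos, the partner of Jun proteins in AP-1, and in the hippocampus it is widely used as a mark of recent neuronal activity. MYC encodes c-Myc, the partner of MAX, which drives growth and proliferation and is abundant in fetal tissue.

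The probes were 60 bases long. Those that represent NFKBIA and CEBPB and 3 of the FOS probes are shown from 5′ to 3′, so that a reader can see what their levels were measured with. A_70_P026731, which gives the main FOS levels below, and the 2 MYC probes are not printed. Capitals mark the run of 59 bases that A_70_P016316 and A_70_P016317 share, since those 2 probes differ only by a shift of 1 base and are not independent readings.
NFKBIA A_70_P068111: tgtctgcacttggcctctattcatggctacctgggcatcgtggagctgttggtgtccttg
CEBPB A_70_P002791: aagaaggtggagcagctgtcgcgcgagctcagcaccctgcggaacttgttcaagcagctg
FOS A_70_P001561: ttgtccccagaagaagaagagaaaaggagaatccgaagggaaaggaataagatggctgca
FOS A_70_P016316: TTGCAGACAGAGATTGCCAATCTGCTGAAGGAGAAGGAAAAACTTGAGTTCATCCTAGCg
FOS A_70_P016317: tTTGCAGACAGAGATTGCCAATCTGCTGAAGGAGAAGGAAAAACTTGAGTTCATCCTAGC
The array files give these probes no place on a genome build, so no coordinates are given. No probe named for another gene shared a run of 16 bases with any of the 8. The CEBPB probe was 60.0% G or C, against a median of 43.3% over all probes, and 1.55% of the probes on the array were as rich or richer. The 2 MYC probes overlapped by 20 bases and A_70_P026731, the brightest FOS probe, shared at most 7 bases in a row with the other FOS probes.

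A level below is the log2 of the processed intensity minus the 75th percentile of its array, so a level of 0 is the brightness of the probe at that percentile. Levels of different probes are not set against each other, because probes bind with different strength. A difference was counted when its unadjusted limma p was under 0.05, and the Benjamini-Hochberg adjusted p over the 12543 probes tested stands beside it. Across arrays that percentile ran from 886 to 1215 units of intensity, and 76.7% to 82.6% of the spots were well above background. All 6 tested markers of neurons and all 3 of astrocytes were well above background on all 16 arrays. HC replicate 5 stood apart, with the 6 neuron markers, summed before the log2 was taken, at 3.29 against 4.82 to 5.59 on the other 15 arrays. On those arrays the sum is mostly SST (somatostatin), which was at 4.19 to 5.21 there and at 1.85 on HC replicate 5. GRIN1, GRIA1, GRIA2 and NPY were also at their lowest on HC replicate 5, while GRIA4 lay within the range of the other arrays. The summed choroid plexus markers of HC replicate 5 were at 6.28, which NC replicate 2 at 6.39 and NK replicate 2 at 6.14 also reached. This sum is nearly all TTR, at 6.27 on HC replicate 5. AQP1 was not well above background there, at -8.17, and CLDN1 and CLDN3 lay within the range of the other arrays. NK replicate 2 had the highest AQP1 (-2.14) and CLDN1 (-1.73). The main results that rest on HC replicate 5 are given with it and without it. Every group lay on both slides of the series.

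NFKBIA was higher after hypoxia without ketamine. Its processed intensity was 1703, 1462 and 1437 on the 3 NC arrays and 6252, 4817, 4589, 6006 and 1466 on the 5 HC arrays. After each array was centered on its percentile, the first 4 HC arrays had levels 2.64 to 3.66 times the NC mean and lay above every NC array, while HC replicate 5, at 0.99 times that mean, lay among them. The mean level was 0.59 ± 0.09 (SD, n = 3) in NC and 1.90 ± 0.77 (SD, n = 5) in HC. The difference was 1.31 log2 units (SE 0.35), a fold of 2.48 with a 95% interval of 1.48 to 4.17, with an unadjusted p of 0.00205 and an adjusted p of 0.193 by limma. The exact permutation test over the arrays, two-sided, gave p = 0.107, where the smallest value it allows is 0.0357. Of all tested probes, 10.6% passed the unadjusted threshold in this comparison, 4.67% were higher and passed it, and 7.65% did not overlap between the groups.

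**Figure D1:**
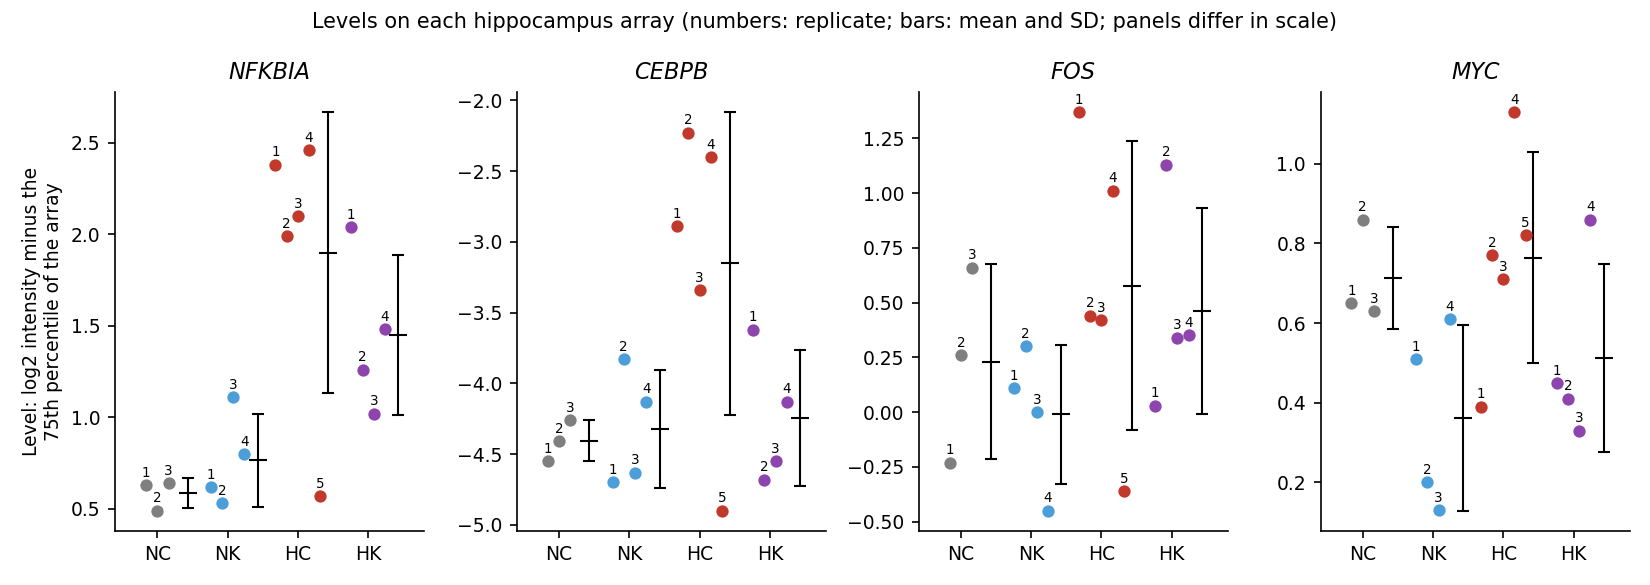
Levels of NFKBIA, CEBPB, FOS and MYC by their brightest probe on each of the 16 arrays, in log2 units relative to the 75th percentile of the array, with the replicate number beside each point and the group mean ± SD as a bar; the panels differ in scale. For NFKBIA and CEBPB, 4 HC arrays lie above all NC arrays and HC replicate 5 lies with the NC arrays or below them.

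Without HC replicate 5 the NFKBIA difference was larger and its spread smaller. That had to follow, because this array had the lowest NFKBIA level of HC. It also had the lowest CEBPB level. The p-values without it, here and below, depend on leaving out the array most opposed to the difference and are not independent support. The 4 remaining HC arrays averaged 2.23 ± 0.22 (SD, n = 4), and they did not overlap with NC. The difference of 1.64 (SE 0.21), a fold of 3.13, then had an adjusted p of 0.00831 by limma, in a fit where 9.61% of the probes passed the unadjusted threshold, 40 of 12543 (0.319%) passed an adjusted p of 0.05 and 10.5% did not overlap between HC and NC. The exact permutation p was 0.0571, the smallest that 4 arrays against 3 allow. Within slide 1 the difference was 1.63, and within slide 2, which held HC replicate 5 and a single NC array, it was 1.07.

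With ketamine, the NFKBIA intensities were 1515, 1559, 2178 and 1600 in NK and 4820, 2321, 2066 and 2469 in HK. HK replicate 1 was as bright as the first 4 HC arrays, the other 3 HK arrays lay between those and the NC arrays, and 3 of the 4 HK arrays had a level above all NK arrays. HK-NK was 0.68 (SE 0.34, 95% interval -0.04 to 1.41), with an unadjusted limma p of 0.062, an adjusted p = 0.945 and an exact permutation p = 0.0571, where 5.18% of all tested probes passed the threshold. When HC replicate 5, which enters this comparison only through the spread shared by the groups, was left out, the same difference of 0.68 had an unadjusted p of 0.00409 and an adjusted p of 0.635 by limma, and 6.31% of all probes passed. HK replicate 1 carried part of it, since without that array HK-NK was 0.49 with an unadjusted limma p of 0.187.

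Ketamine given in normoxia left NFKBIA close to NC, at a difference of 0.18 (SE 0.36, 95% interval -0.60 to 0.96, exact permutation p = 0.343). HK was below HC by 0.45 log2 units (HK-HC -0.45, SE 0.32, 95% interval -1.14 to 0.23, exact permutation p = 0.333) and did not pass the threshold in the main fit, which treats the arrays as unpaired. With the replicate number as a block within each oxygen state, where HC replicate 5 adds nothing, HK-HC was -0.78 and passed. Leaving out HC replicate 5 gave an HK-HC of -0.78 (SE 0.20), with an unadjusted p of 0.00156 and an adjusted p of 0.456 by limma, in a fit where 6.10% of all probes passed the unadjusted threshold. HK replicate 1 still lay among the HC arrays, and the exact permutation p was 0.0571. The difference between the ketamine effects in hypoxia and in normoxia, the interaction, was -0.63 (SE 0.49, 95% interval -1.67 to 0.41), with an unadjusted limma p of 0.216. Without that array it was -0.96 (SE 0.29), with an unadjusted p of 0.00559 and an adjusted p of 1 by limma, where 3.89% of all probes passed the unadjusted threshold. HK-HC and HC-NC use the same HC arrays, so a difference of opposite sign in the 2 is not an independent finding.

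The order of the NFKBIA levels was HC, HK, NK, NC, at 1.90, 1.45, 0.76 and 0.59. No 2 neighbours in that order passed the threshold with all 16 arrays. HK and NC, which are not neighbours, did not overlap and differed by 0.86, with an unadjusted limma p of 0.0331, an adjusted p = 0.757 and an exact permutation p = 0.0571, the smallest possible. In that comparison 6.51% of all tested probes passed the threshold and 8.12% did not overlap. Averaged over both ketamine states, a comparison added after the values were seen, the hypoxia difference was 1.00 (SE 0.24), a fold of 2.00 with a 95% interval of 1.39 to 2.87, an unadjusted p of 0.00103 and an adjusted p of 0.119 by limma, where 12.4% of all tested probes passed the unadjusted threshold. It was 1.16 without HC replicate 5 (SE 0.15), with an adjusted p of 0.00807 by limma, where 12.1% of all probes passed the unadjusted threshold. The same average for the brightest probes of the other genes was 0.67 for CEBPB (SE 0.33), 0.41 for FOS (SE 0.24) and 0.10 for MYC (SE 0.12), and none passed. Without HC replicate 5, CEBPB at 0.89 and the brightest FOS probe at 0.53 passed, with unadjusted limma p of 0.000897 and 0.0246 and adjusted p of 0.0915 and 0.324. The other FOS probes did not.

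CEBPB was higher in HC than in NC and in HK stood near the normoxia groups. Its probe was dim, with intensities of 46.9, 49.0 and 47.8 in NC, and 162, 258, 105, 207 and 33.1 in HC. The same 4 HC arrays as for NFKBIA lay above every NC array, and HC replicate 5 was the dimmest of all 16. In centered levels those 4 arrays were at 2.09 to 4.51 times the NC mean and HC replicate 5 was at 0.713 times that mean. HC-NC was 1.26 log2 units (SE 0.47), a fold of 2.39 with a 95% interval of 1.19 to 4.81, an unadjusted p of 0.0184 and an adjusted p of 0.347 by limma, and an exact permutation p of 0.143. Of all tested probes, 10.6% passed the unadjusted threshold here and 4.67% were higher and passed it. With HC replicate 5 left out, the groups did not overlap and the difference was 1.69 (SE 0.30, fold 3.23, adjusted p = 0.04 by limma, exact permutation p = 0.0571, the smallest possible). In that fit 9.61% of all probes passed the unadjusted threshold, 0.319% passed an adjusted p of 0.05 and 10.5% did not overlap between HC and NC. With NC replicate 1 left out, the difference was 1.18 and its unadjusted limma p was 0.0535, which lost the call.

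The CEBPB intensities were 37.9, 75.7, 41.0 and 52.5 in NK and 95.5, 38.0, 43.5 and 50.7 in HK. HK replicate 1 was above every NK array and the other 3 HK arrays were within the NK range. HK-NK was 0.08 (SE 0.46, 95% interval -0.90 to 1.06, exact permutation p = 0.743), and NK-NC was 0.09 (SE 0.49, 95% interval -0.97 to 1.14, exact permutation p = 0.8). The upper ends of these intervals, 1.06 and 1.14, were not far below the 1.26 of HC-NC.

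HK-HC was the ketamine comparison in which CEBPB passed the threshold. HK was lower than HC by a fold of 0.470, with a 95% interval of 0.247 to 0.894. The difference was -1.09 log2 units (SE 0.43), with an unadjusted p of 0.0245 and an adjusted p of 0.972 by limma, and an exact permutation p of 0.127. Of all tested probes, 4.77% passed the threshold in HK-HC and 1.88% did so by being lower. The 2 groups overlapped because of HC replicate 5. Without it the difference was -1.52 (SE 0.28, fold 0.347), the 4 HC arrays all lay above the 4 HK arrays, the exact permutation p was 0.0286, the smallest possible, and the adjusted p was 0.287 by limma. In that fit 2.54% of all tested probes did not overlap between HK and HC. The call was lost when any 1 of HC replicate 2 (difference -0.86), HC replicate 4 (-0.90), HK replicate 2 (-0.94) or HK replicate 3 (-0.99) was left out. The CEBPB interaction was -1.18 (SE 0.66, 95% interval -2.58 to 0.23) with an unadjusted limma p of 0.0943, and without HC replicate 5 it was -1.61 (SE 0.42), with an unadjusted p of 0.00184 and an adjusted p of 1 by limma. Without that array 3.89% of all probes passed the unadjusted threshold in the interaction.

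The order of the CEBPB levels was HC, HK, NK, NC, at -3.15, -4.24, -4.32 and -4.41. HC and HK differed past the threshold, and HK-NC, between the ends of the 3 lower groups, was 0.17 (SE 0.49). The size of the differences of this dim probe changed with the processing. In the authors' deposited log2 values HC-NC of CEBPB was 0.33 and HK-HC was -0.29, with unadjusted limma p of 0.0155 and 0.0206, so both calls were kept at a much smaller size. With normexp background correction HK-HC was -0.47 and its unadjusted limma p was 0.415, which lost the call.

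**Figure D2:**
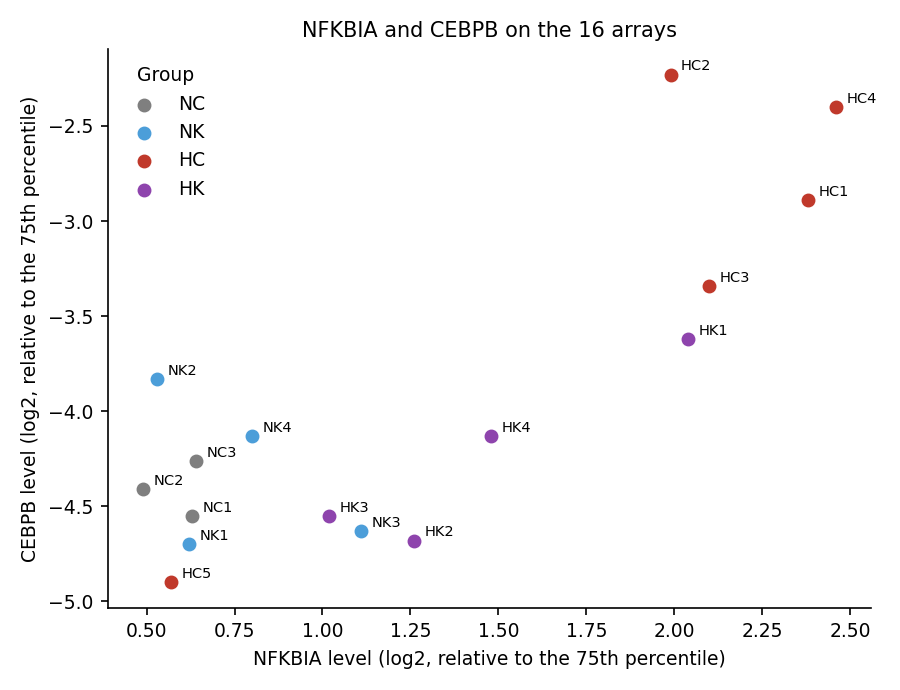
Level of CEBPB against the level of NFKBIA on each of the 16 arrays, both in log2 units relative to the 75th percentile of the array and colored by group. HC replicates 1 to 4 and HK replicate 1 form the upper right, and HC replicate 5 lies at the lower left beside the NC arrays.

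NFKBIA and CEBPB moved together over the arrays. Pearson r was 0.82 and the Spearman coefficient 0.66 over the 16 arrays, and r was 0.78 for the deviations from the group means, given here as a description over arrays that share slides and groups. Without HC replicate 5 the r of the deviations was 0.32. The 5 other named genes of 655 whose levels were most like those of NFKBIA were PDXK (pyridoxal kinase, r = 0.91), SELP (P-selectin, r = 0.90), CD14 (a co-receptor for bacterial lipopolysaccharide, r = 0.88), EDN1 (endothelin 1, a vasoconstrictor peptide, r = 0.87) and RCAN1 (a regulator of calcineurin, r = 0.86). For CEBPB they were CD14 (r = 0.85), PDXK (0.82), NFKBIA (0.82), SELP (0.80) and MCL1, a survival protein of the BCL2 family (0.79). When HC replicate 5 was left out these values lay between 0.80 and 0.95, and those for the deviations from the group means lay between 0.32 and 0.79. Of the 5 genes most like NFKBIA, EDN1 had the highest r for those deviations, at 0.92 over the 16 arrays and 0.79 without HC replicate 5.

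FOS did not differ past the threshold in any of the 5 comparisons with any of its 4 probes. Its brightest probe, A_70_P026731, read 940, 1251 and 1450 in NC and 1067, 1327, 1016 and 671 in NK. It read 3096, 1652, 1433, 2207 and 766 in HC and 1201, 2127, 1285 and 1131 in HK. HC replicates 1 and 4 and HK replicate 2 were the 3 brightest arrays, NK replicate 4 and HC replicate 5 were the 2 dimmest, and the ranges of all 4 groups overlapped. HC-NC was 0.35 (SE 0.35, fold 1.27, 95% interval of the fold 0.759 to 2.13, exact permutation p = 0.464). HK-NK was 0.47 (SE 0.34, fold 1.39, 95% interval of the fold 0.842 to 2.29, exact permutation p = 0.143).

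HC-NC of the brightest FOS probe moved with single arrays. It was 0.58 (SE 0.30, exact permutation p = 0.229) without HC replicate 5, and 0.15, with an unadjusted limma p of 0.658, without HC replicate 1, the brightest array. The ketamine differences of FOS were -0.24 in normoxia (SE 0.36, exact permutation p = 0.457) and -0.11 in hypoxia (SE 0.32, exact permutation p = 0.81). The interaction was 0.13 (SE 0.48, 95% interval -0.91 to 1.16). The hypoxia value without HC replicate 5 was -0.35 (SE 0.28, exact permutation p = 0.314) and the interaction changed sign, to -0.11 (SE 0.42). The order of the levels was HC, HK, NC, NK, at 0.58, 0.46, 0.23 and -0.01, and no 2 neighbours differed past the threshold. Within slide 1 HC-NC was 0.89 and within slide 2 it was -0.30. Slide 2 held 1 NC array, the highest of NC at 0.66, and HC replicate 5, the lowest of HC at -0.36. The opposite sign on slide 2 therefore rests on 1 NC array.

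The FOS probes rose and fell on the same arrays. A_70_P016316 and A_70_P016317 followed the brightest probe with r of 0.98 and 0.97 over the 16 arrays, although neither shared more than 7 bases in a row with it. A_70_P016316 read 83.6, 113 and 116 in NC, 81.2, 110, 89.9 and 52.0 in NK, 276, 133, 109, 175 and 56.4 in HC and 92.6, 167, 99.7 and 82.0 in HK. Its highest arrays were again HC replicates 1 and 4 and HK replicate 2, and its lowest NK replicate 4 and HC replicate 5. A_70_P001561 was the dimmest, at 8.56 to 60.8 intensity units, was not well above background on NK replicate 4, and correlated with the other 3 at r of 0.77 to 0.81. Its HC-NC difference was -0.02 (SE 0.41, exact permutation p = 0.929), against 0.20 to 0.35 for the other 3 probes, and the sign of this value changed with the background treatment, with blocks in the fit and without HC replicate 5.

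**Figure D3:**
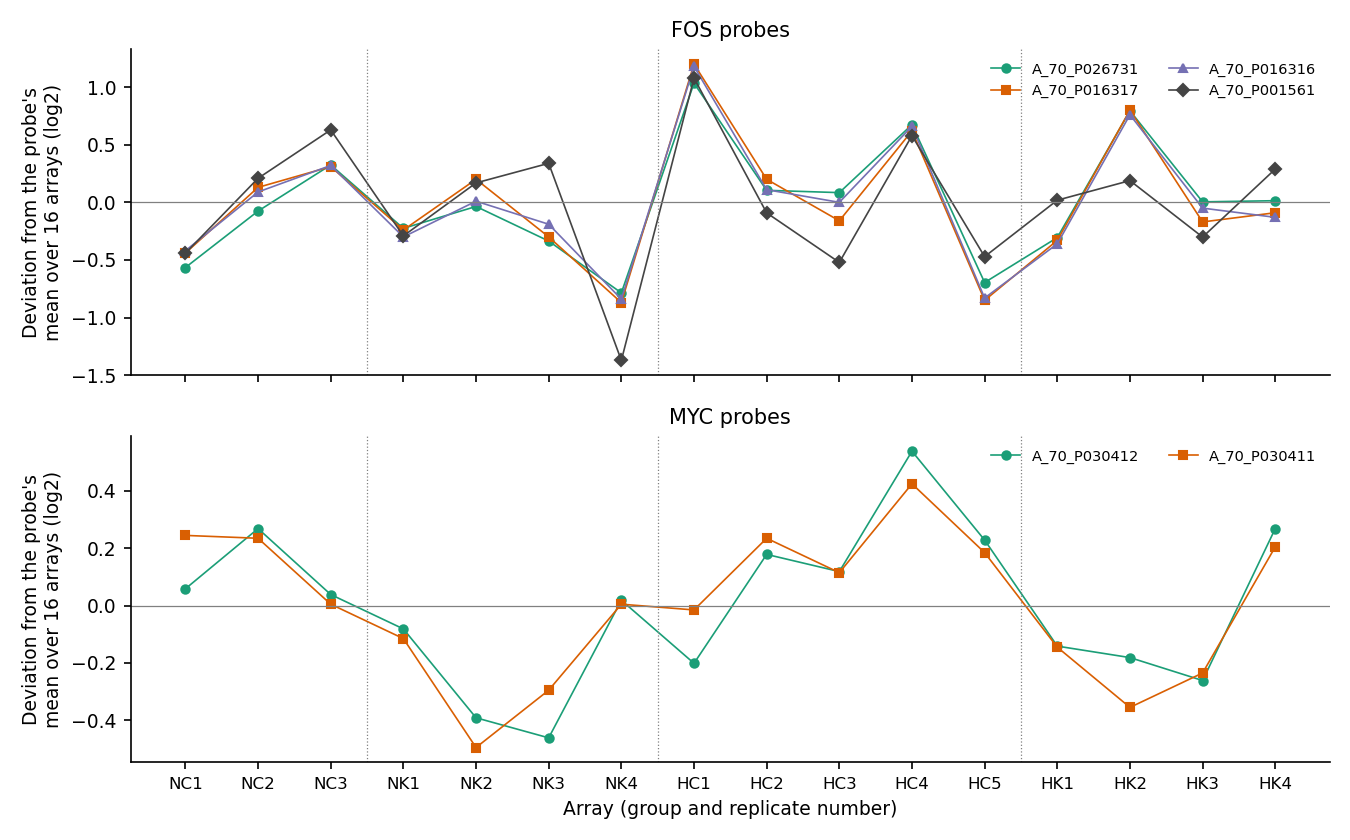
Deviation of each FOS probe (top) and each MYC probe (bottom) from its own mean over the 16 arrays, in log2 units, array by array; dotted lines part the groups NC, NK, HC and HK, and the lines between points only join the readings of 1 probe. The FOS probes rise together on HC replicates 1 and 4 and HK replicate 2 and fall together on NK replicate 4 and HC replicate 5. Both MYC probes lie below their mean on NK replicates 1 to 3, HK replicates 1 to 3 and HC replicate 1, where A_70_P030411 is only just below it.

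The genes most like FOS over the arrays were JUNB (r = 0.87), a Jun protein and itself an immediate early gene, ANGPT2 (angiopoietin 2, r = 0.71), NPY (neuropeptide Y, r = 0.69), CXCL8 (interleukin 8, r = 0.68) and IL1B (interleukin 1 beta, r = 0.67). JUNB kept an r of 0.88 for the deviations from the group means. In HC-NC JUNB was at 0.32 (SE 0.28), with an unadjusted limma p of 0.28. FOS correlated with NFKBIA at r = 0.57 and with CEBPB at r = 0.49 over the 16 arrays. For the deviations from the group means without HC replicate 5, r was -0.12 with NFKBIA and -0.18 with CEBPB.

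MYC did not pass the threshold with hypoxia and was lower with ketamine in both oxygen states by 1 of its 2 probes. Its brightest probe, A_70_P030412, read 1728, 1899 and 1423 in NC and 1404, 1237, 1109 and 1403 in NK. It read 1572, 2078, 1753, 2397 and 1742 in HC and 1603, 1292, 1278 and 1610 in HK. The NK levels, at 0.13 to 0.61, all lay below the NC levels, at 0.63 to 0.86, by a narrow gap, while the HK levels, at 0.33 to 0.86, overlapped with the HC levels, at 0.39 to 1.13. A_70_P030411 read 1104, 1043 and 781 in NC, 773, 651, 699 and 781 in NK, 1007, 1211, 986, 1243 and 949 in HC and 903, 646, 737 and 865 in HK. By this probe 3 of the 4 HK arrays had a level below all HC arrays, and 3 of the 4 NK arrays one below all NC arrays. HC replicate 5 lay within the range of the other HC arrays for both probes.

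HC-NC was 0.05 for the brightest MYC probe (SE 0.17, 95% interval -0.31 to 0.41, exact permutation p = 0.75) and 0.03 for A_70_P030411 (SE 0.14, 95% interval -0.28 to 0.34, exact permutation p = 0.929). A rise of more than 0.41 log2 units, a fold of 1.33, lay outside both intervals. The sign of these small values changed with the processing. HK-NK was 0.15 (SE 0.16, exact permutation p = 0.429) and 0.09 (SE 0.14, exact permutation p = 0.6) for the same probes.

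In NK-NC the MYC probe A_70_P030411 was lower by a fold of 0.766, at -0.39 log2 units (SE 0.15, 95% interval -0.71 to -0.06), with an unadjusted limma p of 0.0233, an adjusted p = 1 and an exact permutation p = 0.114. Of all tested probes, 1.79% passed the threshold in NK-NC, and 1.07% were lower and passed it. The brightest MYC probe gave -0.35 (SE 0.18), with an unadjusted limma p of 0.0645 and an exact permutation p of 0.0571, the smallest possible. Its NK and NC arrays did not overlap, as was so for 3.56% of all tested probes. Same-numbered NC and NK arrays deviated together. With the replicate number as a block within each oxygen state the brightest MYC probe was at -0.44 (SE 0.14) and passed the threshold, with an unadjusted limma p of 0.015 and an adjusted p = 1. NK replicate 4, which has no NC array of its number, adds nothing to NK-NC in that fit. It had the highest level of this probe in NK, at 0.61. Leaving out NK replicate 4 in the unpaired fit also gave -0.44, so a gain from the block cannot be told from the loss of that array. The call of A_70_P030411 was lost without NC replicate 1 (-0.34), NC replicate 2 (-0.35), NK replicate 2 (-0.30) or NK replicate 3 (-0.36). Without HC replicate 5 it was kept, with an unadjusted limma p of 0.0278, where 1.85% of all probes passed.

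In HK-HC the MYC probe A_70_P030411 was lower by a fold of 0.802, at -0.32 log2 units (SE 0.13), with an unadjusted limma p of 0.031, an adjusted p = 0.972 and an exact permutation p = 0.0635. Of all tested probes, 4.77% passed the threshold in HK-HC and 1.88% were lower and passed it. The brightest probe gave -0.25 (SE 0.15, exact permutation p = 0.238). The call of A_70_P030411 was lost without HC replicate 2 (-0.31), HC replicate 4 (-0.26), HK replicate 1 (-0.31), HK replicate 2 (-0.24) or HK replicate 3 (-0.29). It was kept at -0.32 without HC replicate 5, with an unadjusted limma p of 0.0447, where 6.10% of all probes passed. The MYC interaction was 0.07 (SE 0.20) and 0.10 (SE 0.23), with unadjusted limma p of 0.746 and 0.677, so the ketamine differences in the 2 oxygen states were not shown to differ. Averaged over both oxygen states, a comparison added after the values were seen, the ketamine difference of MYC was -0.35 (SE 0.10) for A_70_P030411 and -0.30 (SE 0.12) for the brightest probe. The unadjusted limma p were 0.00354 and 0.0214 and the adjusted p was 0.999 for both, where 1.98% of all tested probes passed the unadjusted threshold. Both still passed without HC replicate 5, with unadjusted limma p of 0.00544 and 0.0319, where 3.15% of all probes did. Without NC replicate 2 the brightest probe no longer passed it, at -0.27. The same average for the other genes was -0.14 for NFKBIA (SE 0.24), -0.50 for CEBPB (SE 0.33) and -0.18 for the brightest FOS probe (SE 0.24), and none passed. Without HC replicate 5 CEBPB did, at -0.72, with an unadjusted limma p of 0.00413. The order of the MYC levels was HC, NC, HK, NK, at 0.77, 0.72, 0.51 and 0.36, and no 2 neighbours differed past the threshold.

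The 2 MYC probes followed each other at r = 0.92 over the 16 arrays. MYC was unlike the other 3 genes, with r of 0.22 to NFKBIA, 0.34 to CEBPB and 0.03 to FOS. The genes most like it were RHOB (r = 0.78) and RAC1 (r = 0.75), which encode small GTPases, VIM (vimentin, r = 0.69), ISG15 (an interferon-induced ubiquitin-like protein, r = 0.68) and TNFSF13B (the B cell activating factor BAFF, r = 0.68).

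**Figure D4:**
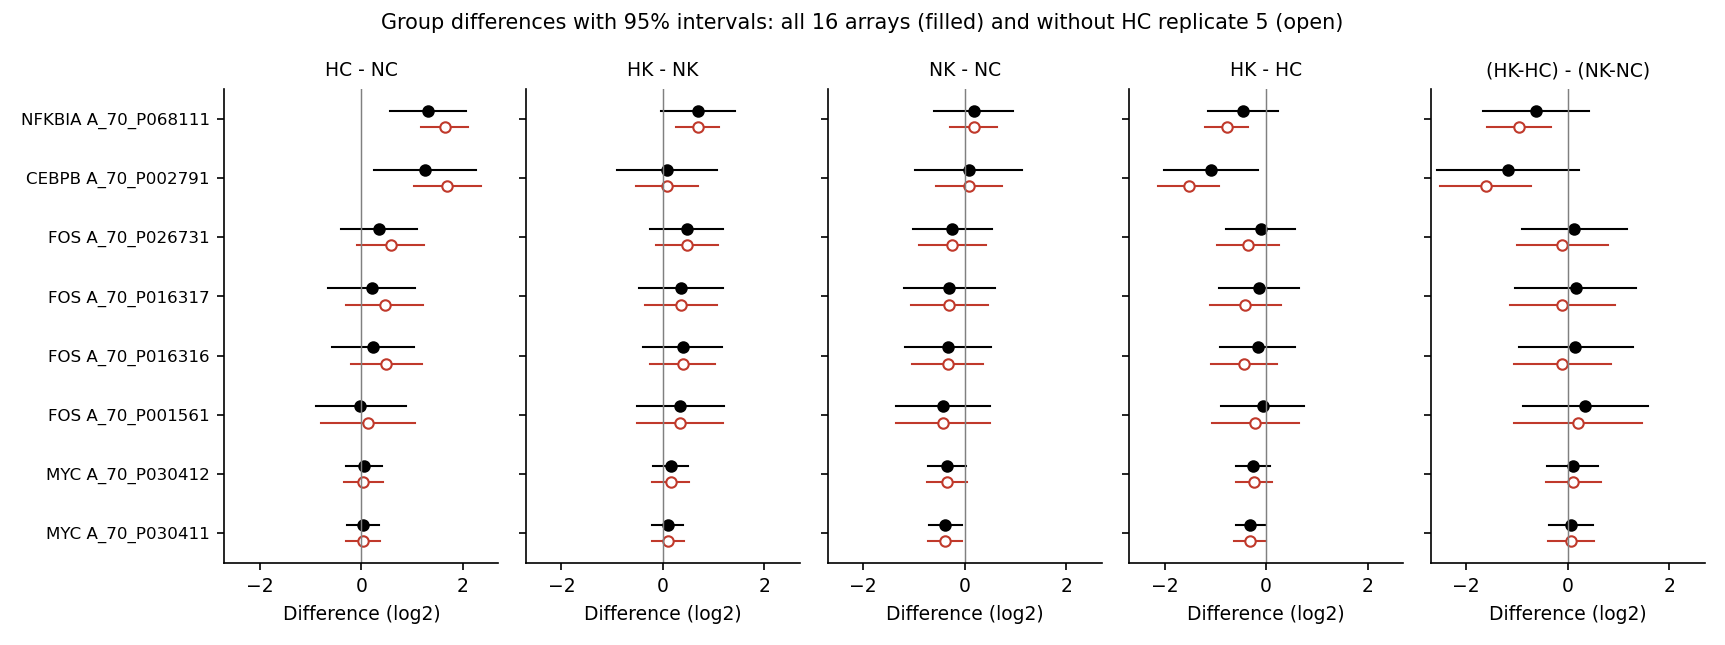
Differences between groups in log2 units with 95% intervals for the 8 probes in the 5 comparisons, filled points from all 16 arrays and open points without HC replicate 5. The NFKBIA and CEBPB intervals in HC-NC lie above 0 with and without that array, those of FOS hold 0 in every panel, and of the MYC probes only A_70_P030411 has intervals wholly below 0, in NK-NC and HK-HC.

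Counted together, 2 of the 8 probes passed the unadjusted threshold in HC-NC, both higher, where 10.6% of all tested probes passed and 4.67% were higher. None passed in HK-NK, where 5.18% of all tested probes did, 1 passed in NK-NC (1.79% of all), 2 passed in HK-HC (4.77% of all) and none passed in the interaction (3.40% of all). No probe of the 8 passed an adjusted p of 0.05 with all 16 arrays, and over all 12543 tested probes 2 (0.0159%) did so in HC-NC and 0 in the other 4 comparisons. Since 6 of the 8 probes share a gene with another, these counts are not counts of independent readings.

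The pathways around the 4 genes were covered unevenly. Of 18 listed NF-kappa-B subunits, inhibitors and kinases other than NFKBIA, none was paired with a probe here. Of the listed receptors and adaptors upstream of NF-kappa-B, 12 were tested, and in HC-NC 6 were higher and 1 was lower, with a median difference of 0.49 against -0.02 over all tested probes. For comparison, 4.67% of all tested probes were higher and 5.92% were lower in HC-NC, and 1.88% were lower in HK-HC. CD14 was higher by 1.98 (SE 0.45), TLR2 by 1.21 (SE 0.30) and TLR4, the lipopolysaccharide receptor, by 1.08 (SE 0.31), and TRAF3, an adaptor that restrains the noncanonical pathway, was at -0.60 (SE 0.13). In HK-HC, 3 of the 12 were lower, namely CD14 at -1.10 (SE 0.41), TLR4 at -0.64 (SE 0.29) and TLR2 at -0.63 (SE 0.28). The counts without HC replicate 5 were again 6 higher and 1 lower in HC-NC, with CD40 in place of TLR6, both named after their values were seen, and the same 3 genes were lower in HK-HC. Over all probes 4.58% were then higher and 5.03% lower in HC-NC, and 2.72% were lower in HK-HC. CD14 then passed an adjusted p of 0.05 in HC-NC, and none of the 12 did so with all arrays.

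Of the listed inducible targets of NF-kappa-B other than NFKBIA, 16 were tested and 9 were higher in HC-NC, with a median difference of 1.17. The 4 with the largest differences were CXCL10 (interferon-inducible chemokine, 4.71, SE 1.64), SELP (4.16, SE 0.98), CXCL8 (3.77, SE 1.19) and IRF1 (an interferon regulatory factor, 2.82, SE 0.78). In HK-NK 4 of the 16 were higher, with a median of 0.49, and in HK-HC 3 were lower, namely TNF (-1.52, SE 0.64), IL1RN (the interleukin 1 receptor antagonist, -1.21, SE 0.55) and IL1B (-0.83, SE 0.32). For comparison, 4.67% of all tested probes were higher in HC-NC, 2.87% were higher in HK-NK and 1.88% were lower in HK-HC. Without HC replicate 5, 10 of the 16 were higher in HC-NC, where 4.58% of all probes were, and 8 were lower in HK-HC, where 2.72% were. None of the 16 passed an adjusted p of 0.05 with all arrays, and without HC replicate 5 SELP did so in HC-NC.

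Few genes of the lists around the other 3 genes passed the threshold. Of the C/EBP and acute phase list, 5 genes were tested and none passed in HC-NC (median 0.06). Without HC replicate 5 the pentraxin PTX3, named here after its values were seen, was higher in HC-NC and lower in HK-HC. Of the AP-1 and immediate early list, 4 genes were tested and none passed in HC-NC (median 0.01), and without HC replicate 5 JUNB was higher in HC-NC and lower in HK-HC. EGR1, another immediate early gene of neurons, also named after its values were seen, was at -0.01 in HC-NC (SE 0.11). Of 9 tested MYC partners and targets, CCND2 (cyclin D2) was lower in HC-NC at -0.72 (SE 0.30) and the median was -0.04. Without HC replicate 5 that call was lost, and CCND3 (cyclin D3), named here after its values were seen, was higher. Of the glucocorticoid response, 3 genes were tested and none passed in HC-NC (median -0.32).

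Markers of microglia and macrophages, which express NFKBIA and CEBPB when activated, were higher on some of the same arrays. Of 22 listed markers 8 were tested, and 3 were higher in HC-NC (CD14, FCER1G and FCGR1A), with and without HC replicate 5. Over all tested probes 4.67% were higher with that array and 4.58% without it. CD14 also stands in the receptor list. The summed level of the 8 was 1.23 to 1.54 in NC, 1.29 to 1.46 in NK, 1.40 to 2.69 in HC and 1.47 to 2.58 in HK. HC replicate 1, with the highest NFKBIA intensity, had a marker sum of 1.40, inside the NC range, while HC replicate 5, with NFKBIA at the NC level, had 2.18, above every NC array. CTSS, the brightest of the 8, makes up most of this sum, at 0.75 on HC replicate 1 and 1.75 on HC replicate 5. Most of the other markers were also higher on HC replicate 5, but CD14 and FCGR2B were lower there. CD14 was at -1.45 on HC replicate 1 and -2.66 on HC replicate 5, against -3.59 to -3.08 in NC. The part of these cells in the NFKBIA and CEBPB results was not tested.

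**Figure D5:**
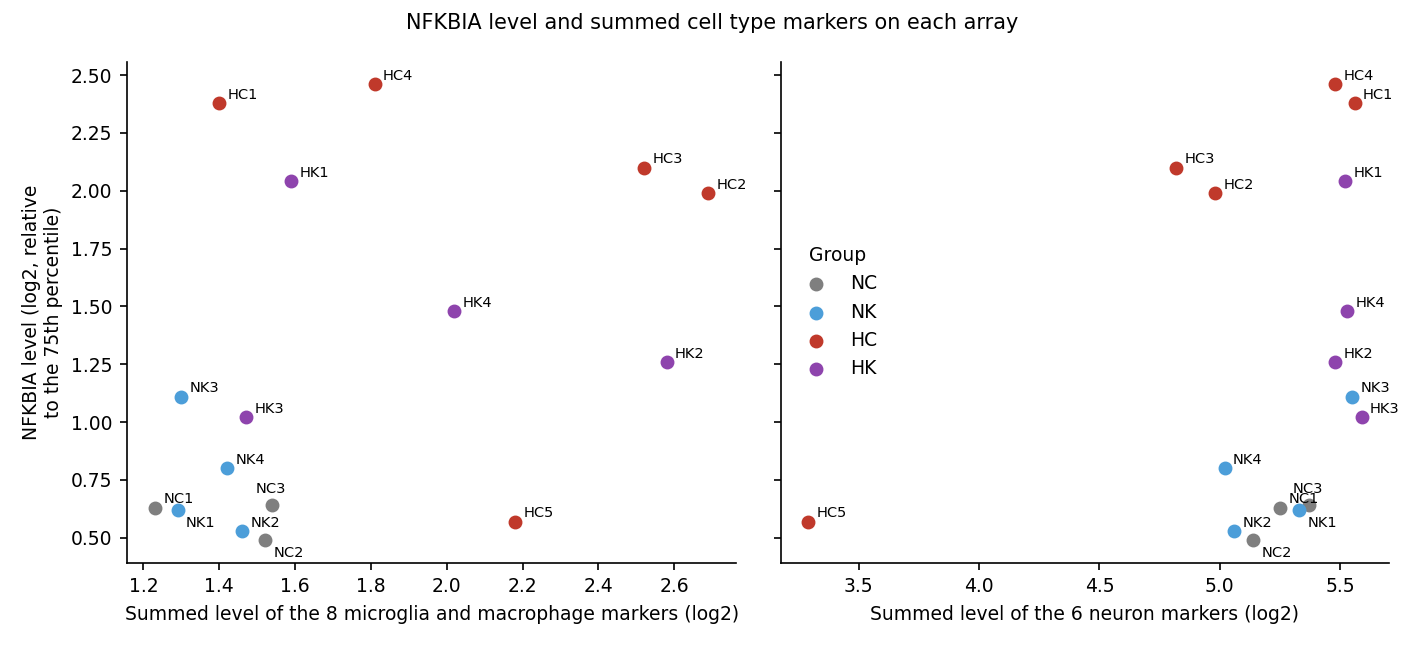
NFKBIA level against the summed level of 8 microglia and macrophage markers (left) and 6 neuron markers (right) on each of the 16 arrays, all in log2 units and colored by group. HC replicate 1 has a high NFKBIA level at a marker sum of 1.40, and HC replicate 5 stands alone at a neuron marker sum of 3.29. On the other arrays the neuron marker sum is mostly SST.

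Of the 6 neuron markers tested, 4 were lower in HC-NC (GRIN1, GRIA1, GRIA2 and GRIA4, subunits of glutamate receptors), as were 5.92% of all tested probes, and without HC replicate 5 none of the 6 was. Of the neutrophil markers 2 were tested, CATHL3 and LTF, and both were higher in HK-NK, where 2.87% of all tested probes were, with summed levels of -4.23 to -1.91 in NK and -1.78 to 2.84 in HK. HK replicate 1, with the highest NFKBIA level of HK, was at -1.60, and HK replicates 2 and 4 were at 2.59 and 2.84. The part of these cells was not tested either.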

How the data were processed

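RNA of the 16 hippocampus samples, with RNA integrity numbers of 7.7 to 9.2 per the labels, was labeled with Cy3 and hybridized to 1-color Agilent ovine arrays on 2 slides. Feature Extraction 10.1.1.1 made the deposited processed intensity values, per the file headers. The authors also deposited a table of log2 values, for which the processing notes name limma and R 2.15.1. Its array medians are all 8.66, its normalization is not given in the sources used here, and it served as an alternative.

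In R 4.3.3, log2 processed intensity was centered on the 75th percentile of each array. Outlier spots were left out, and 12543 probes well above background (13 SD, file headers) on at least 3 arrays were kept. limma 3.58.1 fitted the 4 group means in 1 model with eBayes, two-sided, with Benjamini-Hochberg adjustment over all probes. Exact permutation tests over arrays were two-sided. The fit was tested on simulated data. Background correction, normalization, filter, blocks, weights and leaving out each array were varied. 1220 of 15008 probes (8.13%) were paired with a symbol of a RefSeq sheep table.

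The members, gene lists and comparisons were chosen with earlier results of these data known. All probes of the 4 genes are named. The 5 most alike genes per member were ranked by Pearson r over the 16 arrays, and up to 4 genes per list and comparison past an unadjusted p of 0.05 are named by size of difference.

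Same-numbered NC and NK arrays deviated together from their group means (r = 0.38, 0.31 and 0.20), and 3 of the 4 HC and HK pairs had r over 0.1. The main fit and the permutation tests nevertheless treated all arrays as unpaired. Fits with the replicate number as a block were run as alternatives. The pairing by number is read from the data, and the labels give no litter. The paper reports that most of the fetuses were twins and that each pregnancy was assigned to normoxia or hypoxia. Litter mates may thus stand in NC and NK, or in HC and HK, but the samples they gave are not named. Nothing in the labels states how replicates were drawn beyond 1 fetus a sample, and p-values measure only the spread between these arrays. The number of arrays limits precision.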

Additional observations from a re-analysis of the deposited data

Results flagged for a closer look

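One value was set apart by its distance from its group. NFKBIA on HC replicate 5 lay below the other 4 HC arrays by 0.75 of the whole range of the group, above the limit of 0.71 for 5 samples. Of 24 sets of values examined this way (8 probes in the NK, HC and HK groups), this was 1, and chance alone sets apart about 1 in 20. The intensity was 1466 on that array and 4589 to 6252 on the others. CEBPB on the same array was the lowest of its group too, by 0.583 of the range, which is under the limit. The same array had the lowest summed neuron markers, at 3.29, a sum that is mostly SST on the other arrays, and microglia markers at 2.18. The part of any of these in the NFKBIA value was not tested.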

How the results depend on the processing

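Directions held in nearly all settings for NFKBIA and CEBPB, and the calls were less stable. Apart from leaving out arrays, the NFKBIA differences were recomputed 57 times, of which 48 kept direction and side of the threshold and 9 passed it newly. For CEBPB the numbers were 50 of 57, with 3 calls lost, 3 gained and 1 change of sign, for FOS 59 of 62, with 3 changes of sign, and for MYC 53 of 62, with 6 calls gained and 3 changes of sign. The FOS and MYC counts are for the brightest probe. The other FOS probes changed sign in 18 of 166 recomputations, and the other MYC probe lost 1 call and had 2 changes of sign. Where a value changed, the cause was not tested.

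With normexp background, CEBPB HK-HC was -0.47, MYC HC-NC -0.06 and 0 member probes passed in HK-HC. FOS A_70_P001561 was then 0.94 in HC-NC, 0.84 in NK-NC, 0.12 in HK-HC and -0.72 in the interaction. FOS A_70_P016316 was 0.40 in NK-NC and -0.55 in the interaction, and A_70_P016317 was 0.38 and -0.50. Over all probes normexp left 569 calls in HC-NC, 73 in HK-NK, 18 in NK-NC, 90 in HK-HC and 98 in the interaction, against 1328, 650, 225, 598 and 427. With quantile normalization MYC NK-NC was -0.37 and 2 members passed there. In the authors' deposited values MYC NK-NC was -0.34, with 2 members, and in HC-NC MYC was -0.05 and A_70_P030411 -0.02. With the slide as a block FOS A_70_P001561 was 0.04 in HC-NC. Requiring all 16 arrays above background left 146 calls over all probes in NK-NC. Averaging the probes of a gene gave a MYC NK-NC of -0.37. With an adjusted p under 0.05, 0 members passed in any comparison, and over all probes 2 in HC-NC and 0 in the others.

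A replicate block across all 4 groups was fitted next, where HC replicate 5 is alone in its block and so adds nothing. NFKBIA was then 0.68 in HK-NK (1 member passed), -0.78 in HK-HC and -0.93 in the interaction, and CEBPB was -1.54 in the interaction (2 members). MYC was -0.46 in NK-NC (2 members) and -0.07 in HC-NC, and A_70_P030411 was -0.06 in HC-NC. FOS A_70_P001561 was 0.19 in HC-NC. In the interaction FOS was -0.15, and A_70_P016316 and A_70_P016317 were both -0.17. Over all probes 1065 passed in HK-NK, 1054 in HK-HC and 663 in the interaction. With the block within each oxygen state, NK replicate 4 and HC replicate 5 are each alone in a block and add nothing. MYC was then -0.44 in NK-NC (2 members), NFKBIA -0.78 in HK-HC and -0.95 in the interaction, and CEBPB -1.55 in the interaction (2 members). In the interaction FOS was -0.26, A_70_P001561 -0.15, A_70_P016316 -0.28 and A_70_P016317 -0.30. Over all probes 385 passed in NK-NC, 1212 in HK-HC and 752 in the interaction. The block changed no other call of the 4 genes.

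With only the 2 groups compared in the fit, CEBPB no longer passed, at 1.26 in HC-NC (1 member) and at -1.09 in HK-HC (1 member), and NFKBIA was 0.68 in HK-NK and passed (1 member). With array weights, where HC replicate 5 had the lowest weight, 0.43, NFKBIA was 0.62 in HK-NK (1 member), -0.62 in HK-HC and -0.85 in the interaction. CEBPB was 0.00 in NK-NC and -1.39 in the interaction (2 members). MYC stood at -0.39 in NK-NC (2 members). FOS A_70_P001561 was 0.03 in HC-NC. In the interaction FOS was -0.05, and A_70_P016316 and A_70_P016317 were both -0.02. Over all probes 406 passed in NK-NC, 949 in HK-HC and 644 in the interaction.

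Leaving out 1 array at a time, in the order HC-NC, HK-NK, NK-NC, HK-HC and interaction, gave the following ranges. NFKBIA ran from 1.17 to 1.64, 0.49 to 0.83, 0.06 to 0.25, -0.78 to -0.31 and -0.96 to -0.49. CEBPB ran from 1.03 to 1.69, -0.13 to 0.24, -0.08 to 0.21, -1.52 to -0.86 and -1.61 to -0.95. FOS ran from 0.12 to 0.58, 0.25 to 0.62, -0.47 to -0.03, -0.35 to 0.08 and -0.11 to 0.36. MYC ran from -0.04 to 0.14, 0.03 to 0.23, -0.44 to -0.28, -0.37 to -0.16 and -0.02 to 0.19. The number of member probes that passed ran from 1 to 2, 0 to 1, 0 to 2, 0 to 3 and 0 to 2. Signs also changed for FOS A_70_P001561 (HC-NC -0.30 to 0.23, HK-NK -0.02 to 0.55, HK-HC -0.23 to 0.17, interaction -0.01 to 0.64), A_70_P016316 (-0.01 to 0.49 in HC-NC, -0.44 to 0.07 in HK-HC, -0.11 to 0.39 in the interaction), A_70_P016317 (-0.05 to 0.46, -0.41 to 0.10, -0.11 to 0.40) and MYC A_70_P030411 (HC-NC -0.05 to 0.08, HK-NK -0.02 to 0.17, interaction -0.04 to 0.15). NFKBIA passed in HK-NK without NK replicate 3, HC replicate 5 or HK replicate 3. The brightest MYC probe passed in NK-NC without NK replicate 4 (-0.44), HC replicate 1, HC replicate 4 or HK replicate 4 (each -0.35), and in HK-HC without HC replicate 1 (-0.35) or HK replicate 4 (-0.37).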
